A study of Mus musculus with 2 samples.

Results

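The genes described here are the insulin-like growth factor axis as far as it was chosen by name: the ligand Igf1, the receptors Igf1r and Insr, and the IGF-binding proteins Igfbp1 to Igfbp7. They are 10 of the 37074 gene names on the array. Every non-control probe that carries one of these names in the scanner files was taken, which gave 19 probes of 56601. RNA of dorsal root ganglion (DRG) neurons from C57BL/6 mice was hybridised as Cy3-labelled cRNA to 1-colour Agilent arrays, 1 for each of the genotypes Dock8+/- and Dock8-/-. Both genotypes carried the AND T cell receptor transgene, which gives most T cells a single receptor, so the comparison is between transgenic mice throughout. The labels give the Dock8-/- sample a high and the Dock8+/- sample a low level of interleukin-31, an itch-inducing cytokine. DOCK8 activates the small GTPase CDC42 in immune cells. The age, the number of animals per array and the deleted part of Dock8 are not given in the sources used here.

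IGF-1 binds the IGF-1 receptor, a receptor tyrosine kinase related to the insulin receptor, and both receptors signal through IRS adaptors to PI3K and AKT. IGF-binding proteins (IGFBPs) are secreted, hold IGFs in the extracellular fluid, lengthen their half-life and limit their access to the receptor, and proteases that cut them release the ligand. In sensory ganglia, IGF-1 is known to support the survival and neurite growth of neurons.

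With 1 array per genotype there is no replicate, no test and no error between samples. Each difference below is the log2 intensity on the Dock8-/- array minus that on the Dock8+/- array, after each array's 75th percentile was subtracted. That percentile was 303.8 intensity units for Dock8+/- and 145.6 for Dock8-/-, so a probe of equal raw intensity counts as higher in Dock8-/-. A probe counted as measured when the scanner software called it well above background on both arrays, and 2-fold serves only as a description of size. Repeated spots of a probe had a log2 SD of 0.04 for Dock8+/- and 0.05 for Dock8-/-, which covers technical error within an array only. Probes of the same gene disagreed by more: over the 4233 genes with 2 measured probes the median gap was 0.51. Dock8 itself had 5 probes, of which 1 cleared the background in Dock8+/- (20.5 units, against 6.87 in Dock8-/-, unscaled) and 0 did in Dock8-/-. That reading lies near 17.4 units, the lowest intensity well above background on the Dock8+/- array. Another Dock8 probe, below that call on both arrays, read 3.89 units in Dock8+/- and 12.1 in Dock8-/-. The Dock8 probes thus check the genotype labels only in part.

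Of the 10 genes, 9 were measured on both arrays. Igfbp2, Igfbp5, Igfbp6, Igfbp7 and the brightest Igf1 probe were between 2.53-fold and 4.23-fold lower in Dock8-/-. That is 5 of 9, while over all 18680 measured genes the share past 2-fold was 7.01% on the lower side and 9.09% on the higher side. The other 4 measured genes, Igf1r, Igfbp3, Igfbp4 and Insr, lay above 0 and within 2-fold, and turned below 0 when the arrays were scaled on their spike-in RNAs instead. The probe that stands for each measured gene, and the other Igf1, Igfbp3 and Igfbp5 probes whose values are compared with it below, are given by their first 30 bases of 60, from 5′ to 3′, in the orientation of the scanner files. The Igfbp3 probe for ENSMUST00000135887 was read in Dock8-/- only.
Igf1 (NM_010512): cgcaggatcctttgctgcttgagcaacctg
Igf1 (NM_184052): aaccattaaaaacatgccaccaagaccttc
Igf1r (NM_010513): ttgtaacaatctattcacaagcctcctgta
Insr (NM_010568): tttctgtttgtcttttgacctgaaaacaca
Igfbp2 (NM_008342): catctcttctacaacgagcagcaggagact
Igfbp3 (NM_008343): gagctttccttgagagcacaaaggaatctc
Igfbp3 (ENSMUST00000135887): ggagaacctggcatatttggtttctgaatt
Igfbp4 (NM_010517): atgatcacaggtgcctgcagaagcatatgg
Igfbp5 (NM_010518): cacatcacatattactgtagctctctatag
Igfbp5 (ENSMUST00000027377): tttagcattttggtacttaaggaaataaaa
Igfbp6 (NM_008344): ctgtcacccttgggcctttacacagctagt
Igfbp7 (NM_008048): taacccactaacactttattacagccagct

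The Igf1 probes shown lie on chr10:87393516-87393575 (NM_010512) and chr10:87378456-87378515 (NM_184052), plus strand, in the mouse build mm9 that the scanner files use. The Igfbp2 probe lies on chr1:72898677-72898736, plus strand, and the Igfbp5 probes on chr1:72904829-72904888 and chr1:72904506-72904552, minus strand. The last of these intervals is shorter than the probe's 60 bases, as the scanner files give it. The Igfbp3 probes lie on chr11:7106193-7106252 and chr11:7107949-7108008, minus strand, the Igfbp6 probe on chr15:101979852-101979911, plus strand, and the Igfbp7 probe on chr5:77778355-77778414, minus strand. The Igf1r probe lies on chr7:75371371-75371430 and the Igfbp4 probe on chr11:98909591-98909650, plus strand, and the Insr probe on chr8:3155472-3155531, minus strand. Exon and UTR annotation of mm9 was not used here. Of the 19 probes, 13 had a transcript accession listed for the same gene in the RefSeq table of GRCm38.p6, 0 for another gene, and the other 6 had none in that table.

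Igf1 encodes the ligand. Its probe for NM_010512 read 1284 intensity units in Dock8+/- and 165 in Dock8-/-, which is 3.72-fold lower after scaling (log2 difference -1.89). Its probe for NM_184052 read 432 and 214 units, a log2 difference of 0.04, and -0.02 with normexp background correction. The third probe, for AK050118, cleared the background in Dock8+/- only, at 27.4 against 9.19 units, and allows no bound. The measured Igf1 probes thus gave different answers: one was lower in Dock8-/- and the other was level with the array as a whole. Their gap of 1.94 is large for this platform, since 2.74% of the genes with 2 measured probes had a larger one. The value of Igf1 therefore rests on the probe taken to stand for it, and the mean over its measured probes was -0.925.

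Igf1r encodes the receptor for IGF-1, and 4 of its 4 probes were measured. The brightest read 313 units in Dock8+/- and 172 in Dock8-/-, a log2 difference of 0.19. The second NM_010513 probe read 217.5 and 155.8 units (0.58), and the AK155079 probe read 74.9 and 54.7 units (0.61). The AK044980 probe read 58.9 and 29.5 units (0.06). All 4 lay above 0 and within 2-fold, with a gap of 0.55 between the extremes. The AK044980 probe turned to -0.22 with loess and to -0.12 with quantile normalisation, and spike-in scaling placed all 4 below 0.

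Insr encodes the insulin receptor, which binds insulin and can form hybrids with the IGF-1 receptor. Its brighter probe read 75.5 units in Dock8+/- and 66.1 in Dock8-/-, which is 1.83-fold higher after scaling (0.87). Its other probe was not well above background in Dock8+/- (14.5 units) and read 53.2 units in Dock8-/-, which bounds the difference at 6.39-fold or more (at least 6.39-fold higher, 2.68 on the log2 scale). For such bounds the dim reading was replaced, if smaller, by the lowest intensity well above background on its array, which was 17.4 units in Dock8+/- and 16.1 in Dock8-/-. Both Insr probes thus lay on the same side on the reported scale, but at unlike sizes, 0.87 against at least 2.68. Both read below the 75th percentile of each array, and the measured one turned to -0.98 with spike-in scaling. On the reported scale no receptor probe was at least 2-fold lower. Spike-in scaling put the Igf1r probes between -1.79 and -1.24, all at least 2-fold lower.

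Igfbp2 and Igfbp5 differed by about the same amount. IGFBP2 carries an integrin-binding motif besides its IGF site. Its probe read 3904 units in Dock8+/- and 446 in Dock8-/-, 4.20-fold lower (-2.07). IGFBP5, which binds extracellular matrix and forms a ternary complex with IGF and the acid-labile subunit, read 10413 and 1180 units, 4.23-fold lower (-2.08). Its second probe, at 781 and 68.7 units, was 5.45-fold lower (-2.45). The Igfbp5 probes gave the same direction with a gap of 0.37, and 61.4% of the genes with 2 measured probes had a larger one. These 2 genes are neighbours on chromosome 1, with 0 genes between them and 5590 bases apart in GRCm38.p6, and their differences were 0.01 apart on the log2 scale.

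Igfbp6 encodes a binding protein that prefers IGF-2 to IGF-1. Its single probe read 66273 units in Dock8+/- and 8162 in Dock8-/-, which is 3.89-fold lower (-1.96). Neither array had a saturated non-control spot. Igfbp7, a matrix-associated protein with weak affinity for IGFs, read 15798 and 2996 units, 2.53-fold lower (-1.34). It was the smallest of the 5 differences past 2-fold.

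Igfbp3 encodes the main IGF carrier of plasma, which like IGFBP5 joins the ternary complex. Its NM_008343 probe read 5968 units in Dock8+/- and 4742 in Dock8-/-. The raw reading was thus lower in Dock8-/-, by less than the arrays differed, and the scaled difference was 1.66-fold higher (0.73). Its other probe, for ENSMUST00000135887, was not well above background in Dock8+/- (9.29 units) and read 24.9 units in Dock8-/-, at least 2.99-fold higher. That bound, 1.58 on the log2 scale, is smaller than the 1.85 by which spike-in scaling lowers each difference. With spike-in scaling the NM_008343 probe was at -1.12.

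Igfbp4 encodes an inhibitor of IGF action that PAPP-A cleaves. Its brighter probe read 413 units in Dock8+/- and 243 in Dock8-/- (0.29), and its other probe read 351 and 159 units (-0.08). The gap of 0.38 between them is common, with 60.5% of the genes with 2 measured probes above it. Igfbp4 was therefore near the array as a whole. The second probe holds a run of 4 GA or GAA units, the only one of the 19 that does. Igfbp1, a liver-derived binding protein that lies next to Igfbp3 on chromosome 11, with 0 genes between them and 3539 bases apart, had 1 probe, which cleared the background on neither array (4.92 units in Dock8+/- and 13.7 in Dock8-/-).

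**Figure D1:**
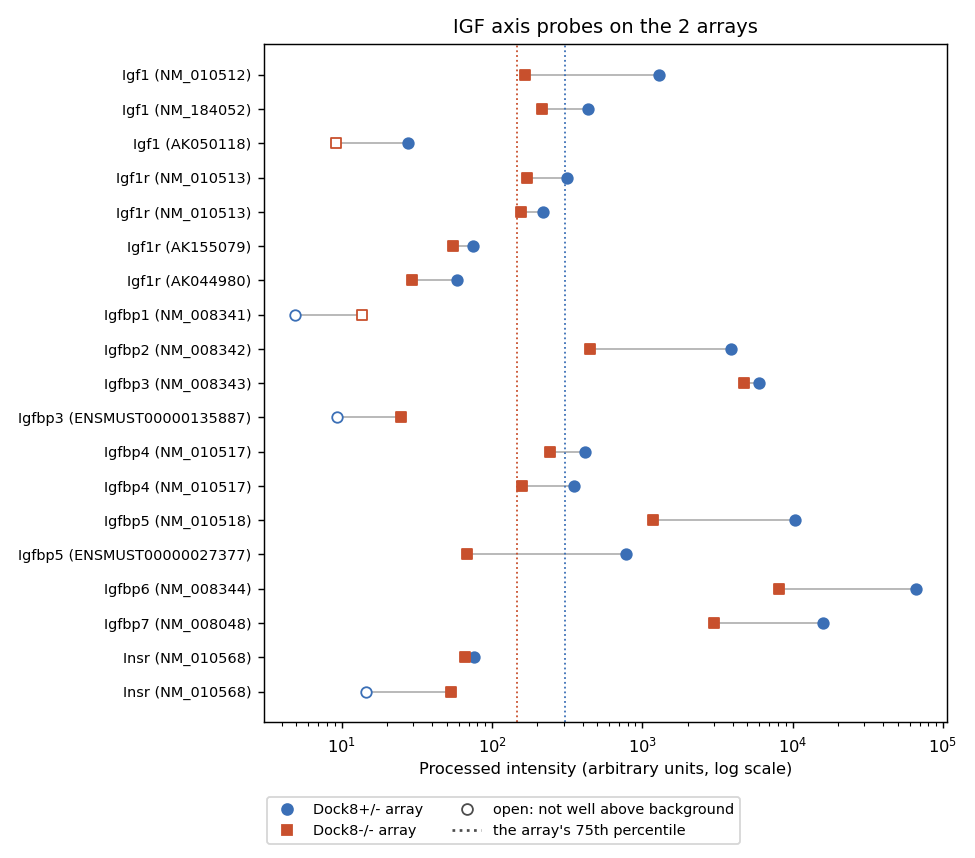
Processed intensity of all 19 probes on a log axis (arbitrary units), with circles for the Dock8+/- array, squares for the Dock8-/- array, open symbols for readings not well above background and dotted lines at each array's 75th percentile (303.8 and 145.6). The Igfbp2, Igfbp5, Igfbp6 and Igfbp7 probes and 1 Igf1 probe lie far apart between the arrays, whereas the Igfbp3 and Insr probes read on both arrays nearly meet.

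Across the measured genes, 9 of 9 read lower on the Dock8-/- array before scaling, so a position above 0 means a smaller gap between the arrays than that of their 75th percentiles. After scaling, 5 of 9 were at least 2-fold lower and 0 were at least 2-fold higher. Among all measured genes, 1310 were lower and 1698 higher past 2-fold. With normexp background correction that split was 865 lower and 706 higher, with loess 1531 and 1299, and with spike-in scaling 16314 and 58. The IGF axis genes at least 2-fold lower numbered 5, 5 and 8 under these settings, and 0 were higher. The median of the 9 genes was -1.34, against 0.03 over all genes. Over the 6 measured binding proteins alone the median was -1.65, with 4 at least 2-fold lower and 2 above 0 that spike-in scaling turned below 0. Of all measured genes, 0.958% had a lower difference than Igfbp5, 0.974% than Igfbp2, 1.16% than Igfbp6, 1.32% than Igf1 and 3.63% than Igfbp7. A higher difference was found for 12.2% of genes above Insr and for 16.0% above Igfbp3. The genes were chosen with earlier results of these data known, and with 1 array per genotype these shares describe the 2 arrays.

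**Figure D2:**
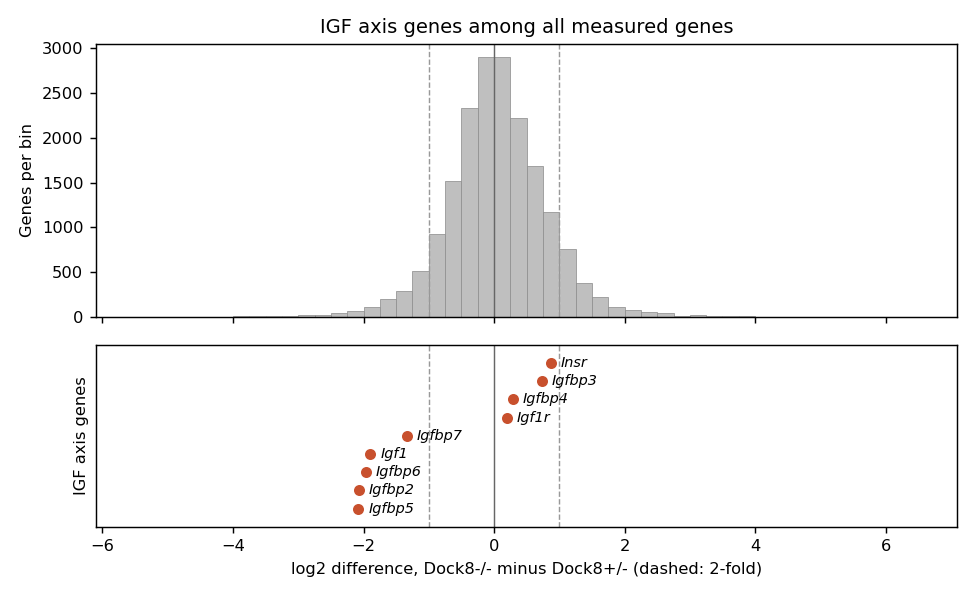
The upper panel counts measured genes per bin of log2 difference (Dock8-/- minus Dock8+/-), and the lower panel places the 9 measured IGF axis genes on the same axis. Igf1, Igfbp2, Igfbp5, Igfbp6 and Igfbp7 lie left of the dashed 2-fold line, and Igf1r, Igfbp3, Igfbp4 and Insr lie right of 0, where spike-in scaling does not keep them.

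A ratio of 2 genes on the same array does not depend on where the arrays are centred. Relative to Igfbp5, Igfbp3 was 7.01-fold higher in Dock8-/- than in Dock8+/- (2.81 on the log2 scale), and this ranged from 2.78 to 2.82 over 8 scalings, the reported one included. Igfbp3 against Igfbp2 gave 2.80 (2.66 to 2.82), and Igfbp3 against Igfbp6 gave 2.69 (2.69 to 2.90). Igfbp4 against Igfbp5 gave 2.37 (2.31 to 2.45). The binding proteins thus differed unequally between the arrays under each of the 8 scalings. Scalings that only shift each array give the same ratio by construction, so the ranges come from quantiles, loess, normexp and the authors' value table. That table was itself quantile normalised. The receptor against the ligand, Igf1r minus the NM_010512 probe of Igf1, gave 2.09 (1.89 to 2.09), and this rests on the Igf1 probe that the gene's other probe does not match.

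**Figure D3:**
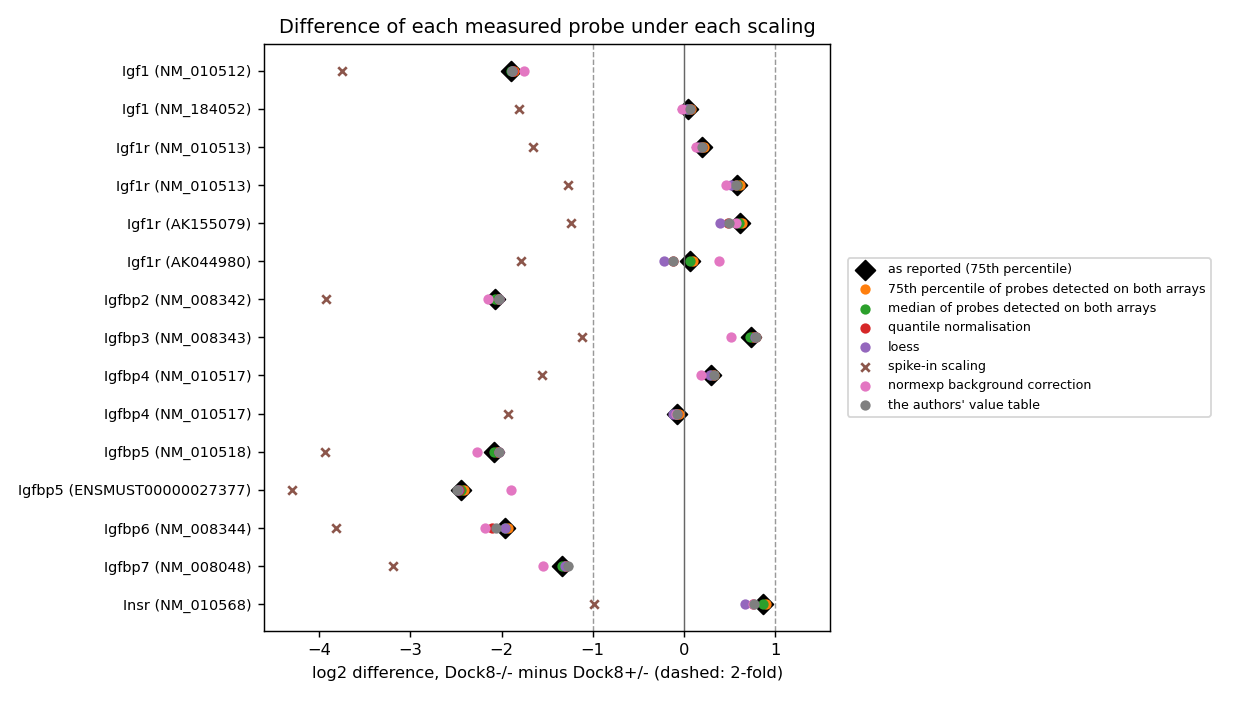
Log2 difference of each of the 15 probes measured on both arrays under 8 scalings, with diamonds for the reported values, crosses for spike-in scaling and circles for the rest. Spike-in scaling moves all probes left together by 1.85, while the order of the low Igfbp2, Igfbp5, Igfbp6 and Igfbp7 probes against Igfbp3 and Igfbp4 stays.

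Promoter windows were read from RefSeq (GRCm38.p6) for 9 of the 10 genes, as 10 windows, and Insr is named only. The 250 bases before the start are shown for the 4 binding proteins that were lower together and for Igfbp3, which was not on the reported scale, with each TATA box (TATAAA) and GC box (GGGCGG) on either strand in capitals. Igfbp2 lies on chr1:72824230-72824479, plus strand (the first of its 2 windows), Igfbp5 on chr1:72874866-72875115, minus strand, Igfbp6 on chr15:102143936-102144185, plus strand, Igfbp7 on chr5:77408046-77408295, minus strand, and Igfbp3 on chr11:7213924-7214173, minus strand.
Igfbp2: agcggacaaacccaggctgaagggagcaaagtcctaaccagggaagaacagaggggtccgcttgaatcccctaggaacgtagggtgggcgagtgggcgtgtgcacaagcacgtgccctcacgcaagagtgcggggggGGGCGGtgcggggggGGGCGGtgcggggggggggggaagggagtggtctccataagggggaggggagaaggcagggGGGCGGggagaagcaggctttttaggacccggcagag
Igfbp5: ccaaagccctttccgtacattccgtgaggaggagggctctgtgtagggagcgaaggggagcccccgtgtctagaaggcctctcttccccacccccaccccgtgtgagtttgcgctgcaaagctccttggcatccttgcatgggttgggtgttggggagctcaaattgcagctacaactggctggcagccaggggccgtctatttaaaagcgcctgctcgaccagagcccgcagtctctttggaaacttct
Igfbp6: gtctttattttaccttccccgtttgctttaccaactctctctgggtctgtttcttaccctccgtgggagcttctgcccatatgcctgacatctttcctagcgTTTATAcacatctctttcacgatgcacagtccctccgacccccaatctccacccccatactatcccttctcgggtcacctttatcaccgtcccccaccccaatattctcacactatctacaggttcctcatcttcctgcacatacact
Igfbp7: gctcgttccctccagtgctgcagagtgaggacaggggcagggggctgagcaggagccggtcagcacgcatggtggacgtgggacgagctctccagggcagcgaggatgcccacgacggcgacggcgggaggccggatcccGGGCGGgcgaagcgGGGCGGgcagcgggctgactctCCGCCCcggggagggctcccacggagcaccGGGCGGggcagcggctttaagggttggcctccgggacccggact
Igfbp3: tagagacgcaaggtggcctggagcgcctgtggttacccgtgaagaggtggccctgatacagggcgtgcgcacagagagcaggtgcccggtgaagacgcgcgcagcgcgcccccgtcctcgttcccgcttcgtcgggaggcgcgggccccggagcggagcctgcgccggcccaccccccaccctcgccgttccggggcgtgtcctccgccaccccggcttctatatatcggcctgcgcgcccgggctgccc

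The windows of the lower genes differed in composition. GC content was 67.2% for Igfbp2, 58.8% for Igfbp5, 49.6% for Igfbp6 and 74.0% for Igfbp7, against 73.2% for Igfbp3 and a median of 52.4% over 32851 windows. Igfbp6 had 7 CpG sites and Igfbp7 had 26, against a median of 6. In these 250 bases, searched on both strands, Igfbp2 held 3 GC boxes and Igfbp7 held 4, while Igfbp5, Igfbp6 and Igfbp3 held none. Of all windows, 32.7% hold a GC box. Igfbp6 held a TATA box, which begins 148 bases before the start, and 12.4% of all windows hold one. The FOXO motif GTAAACA (3.17% of all windows) was in none of the 10 windows, the AP-1 motif TGANTCA (6.75%) was in those of Igf1 and the second of Igfbp2, and the insulin response sequence CAAAACA (5.56%) was in that of Igfbp1. No searched motif contains another, and a match in these letters is a description of the sequence.

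Beyond the named genes, 7 lists of the pathway held 92 genes, of which 68 were measured. Past 2-fold, 11 were lower and 7 higher (7.01% and 9.09% of all genes), with a median of 0.01. The split was 9 lower and 3 higher with normexp background correction and 59 and 0 with spike-in scaling. The other ligand, Igf2, was 2.72-fold lower, with 3991 units in Dock8+/- and 703 in Dock8-/- (-1.44), and its second measured probe gave -1.33. Igf2r, which binds and clears IGF-2, read 627 and 200 units (-0.59). The acid-labile subunit Igfals and the insulin gene Ins1 cleared the background on neither array, while the other insulin gene, Ins2, read 60.7 and 38.7 units (0.41). Among 5 measured genes of this list 1 was lower and 0 higher past 2-fold, and the median was -0.59. Insl5, not among these 5, was read in Dock8-/- only (21.9 units, against 10.5 in Dock8+/-), at least 2.63-fold higher. That bound, 1.40 on the log2 scale, is smaller than the 1.85 by which spike-in scaling lowers each difference.

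Adaptors and the kinase branch lay around 0. Among 17 measured adaptors 1 was at least 2-fold lower and 4 higher (median 0.09): Sh2b2, an adaptor of the receptors, read 92.1 and 202 units (2.20), and Irs2 read 1808 and 1741 units (1.01). Socs2, an inhibitor of growth hormone signalling, gave 1.12, with its 4 probes between 0.14 and 1.12, and the phosphatase Ptpn11 gave 1.01. Irs3 read 125 and 26.4 units (-1.18). Most of these adaptor values depended on the processing. With normexp background correction Irs3 was at -0.29, Irs2 at 0.77, Ptpn11 at 0.76 and Socs2 at 0.87, all within 2-fold, while Sh2b2 was at 1.59. With spike-in scaling Irs2, Socs2 and Ptpn11 turned below 0 and Sh2b2 was at 0.35. Of 24 measured genes of the PI3K, AKT and mTOR branch, 1 was lower and 2 higher past 2-fold (median -0.02). Pik3ca, a catalytic subunit of PI3K, gave 2.25 from 1 probe that holds a run of 4 GA or GAA units, Rheb, the activator of mTOR, gave 1.15 from 1 probe and -0.55 from the other and turned below 0 with spike-in scaling, and the transcription factor Foxo6 gave -1.39. With spike-in scaling Pik3ca was at 0.40, and with normexp Rheb was at 0.93 and Foxo6 at -0.998.

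Proteases that cut IGFBPs, listed together with their inhibitors, split between the arrays. Of 18 listed, 10 were measured, with 3 at least 2-fold lower and 1 higher (median -0.02). Mmp2, a matrix metalloprotease, read 814 units in Dock8+/- and 38.8 in Dock8-/- (-3.33). Htra3, a secreted serine protease, read 7244 and 435 units (-3.00), with its other probe at -0.99. Plau, the urokinase-type plasminogen activator, gave -1.06, and -0.49 with normexp. Pappa2, which cleaves IGFBP3 and IGFBP5, read 78.1 and 111 units (1.56), and turned to -0.29 with spike-in scaling. Mmp9, at 72.3 units in Dock8+/-, was not well above background in Dock8-/-, at least 2.15-fold lower. Htra4 (51.9 against 17.0 units, at least 1.46-fold lower) and Mmp3 (23.7 against 3.87 units, no bound) were also read in Dock8+/- only. In this list 0 genes were read in Dock8-/- only. The PAPP-A inhibitors Stc1 and Stc2 cleared the background on neither array.

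IGFBP-related proteins share the amino-terminal IGFBP domain. Of 6 measured, 5 were at least 2-fold lower and 0 higher, with a median of -1.73. Esm1, an endothelial proteoglycan, read 999.7 units in Dock8+/- and 87.9 in Dock8-/- (-2.45), and the matricellular CCN proteins Wisp1, Cyr61 and Nov gave -2.21, -1.85 and -1.61. With normexp Wisp1 was at -0.99, within 2-fold. Kazald1 gave -1.32. Ctgf, of the same CCN family, read 2940 and 2500 units (0.83) and was the exception, though below 0 with spike-in scaling as all differences under 1.85 are, while Wisp2 was well above background in Dock8+/- only (465 units), at least 13.8-fold lower. Igfbpl1 went the other way on the reported scale: it was read in Dock8-/- only (26.1 units, against 10.69 in Dock8+/-), at least 3.14-fold higher. Its bound, 1.65 on the log2 scale, is smaller than the 1.85 by which spike-in scaling lowers each difference. Among the rest, the single measured IGF mRNA-binding protein, Igf2bp2, gave 0.67, and of 5 measured genes of the growth hormone axis 0 were 2-fold apart (median 0.42).

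**Figure D4:**
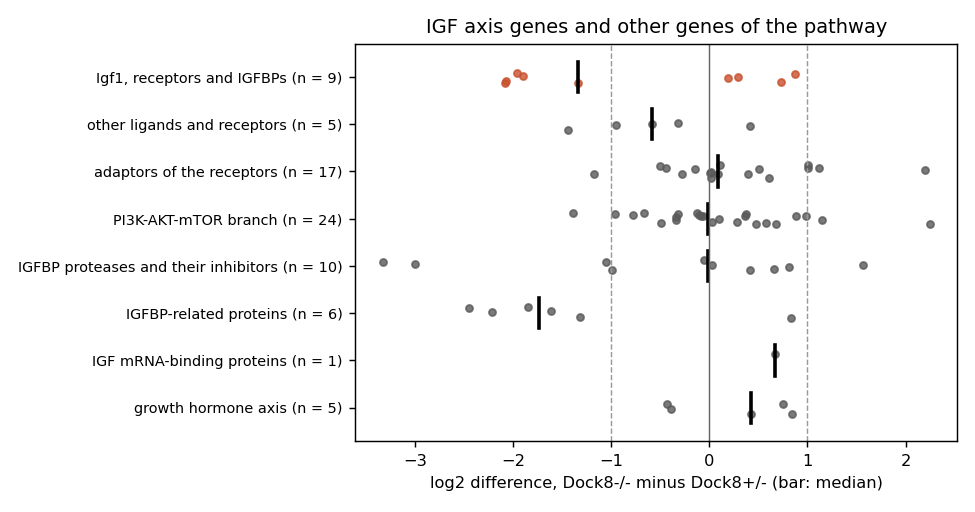
Log2 difference (Dock8-/- minus Dock8+/-) of each measured gene, by list, with 1 point per gene, a bar at the median and dashed lines at 2-fold. The IGF axis genes and the IGFBP-related proteins have medians of -1.34 and -1.73, while the adaptors and the PI3K, AKT and mTOR branch sit at 0.09 and -0.02, and spike-in scaling lowers each value by 1.85.

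The samples are labelled DRG neurons, and neuronal markers were read on both arrays: 8 of 8 pan-neuronal and 10 of 10 sensory neuron markers were measured, with medians of 0.13 and -0.09. Markers of other cells were read as well, and several lists were lower together with these IGF axis genes. Past 2-fold, 7.01% of all measured genes were lower and 9.09% higher. Of 8 measured fibroblast markers 7 were at least 2-fold lower and 0 higher (median -2.28). Their summed intensity was 282907 units in Dock8+/- and 38616 in Dock8-/-, of which Dcn gave 169838 and 29379. Sums for this and the following lists are unscaled, and after scaling the fibroblast sums had a log2 difference of -1.81. Col1a1 gave -2.92 and Dcn gave -1.47, and Dpt and Sfrp2 were well above background in Dock8+/- only. Marker counts and medians take the brightest measured probe of each gene. Other measured probes reached 0.05 for Col1a2 and -0.42 for Col3a1, while all those of Col1a1 and Fbln1 were at least 2-fold lower. Macrophage markers were lower for 9 of 11 (median -1.52, summed 45454 and 5849 units), and meningeal and perineurial markers for 5 of 7 (median -1.25, summed 19746 and 5416 units). Skeletal muscle markers were lower for 4 of 5 measured (median -3.94, summed 9082 and 312 units), and Acta1, Myh1, Ckm and Mylpf were well above background in Dock8+/- only. Adipocyte markers were lower for 4 of 5 (median -2.01, summed 2637 and 330 units), with Adipoq and Plin1 read in Dock8+/- only, and cartilage and bone markers for 3 of 5 (median -1.15, summed 5690 and 613 units), with Chad read in Dock8+/- only.

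Other lists did not follow that pattern. Satellite glia (median 0.43), Schwann cell (-0.11), endothelial (-0.30) and mural markers (-0.49) lay nearer 0, with 1, 1, 0 and 1 genes at least 2-fold lower and 2, 1, 0 and 1 higher, of 7, 7, 7 and 8 measured. The endothelial markers Tie1 and Tek were read in Dock8+/- only, at least 1.73-fold and 1.74-fold lower. Spinal cord astrocyte and oligodendrocyte markers were higher for 4 of 5 (median 1.35, summed 3958 and 8182 units), and the sixth, Opalin, was read in Dock8+/- only (41.3 against 11.1 units), at least 1.23-fold lower. Of 4 hepatocyte markers 2 were measured, at 0.23 and 0.29, and Apoa1 was not well above background in either sample, and Alb was read in Dock8+/- only (31.0 against 3.37 units). Spike-in scaling lowers each marker median by 1.85, which turns those above 0 below 0. The part of other cell types in the IGF axis differences was not tested. In bulk RNA, fewer cells of a type and less RNA per cell cannot be told apart.

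**Figure D5:**
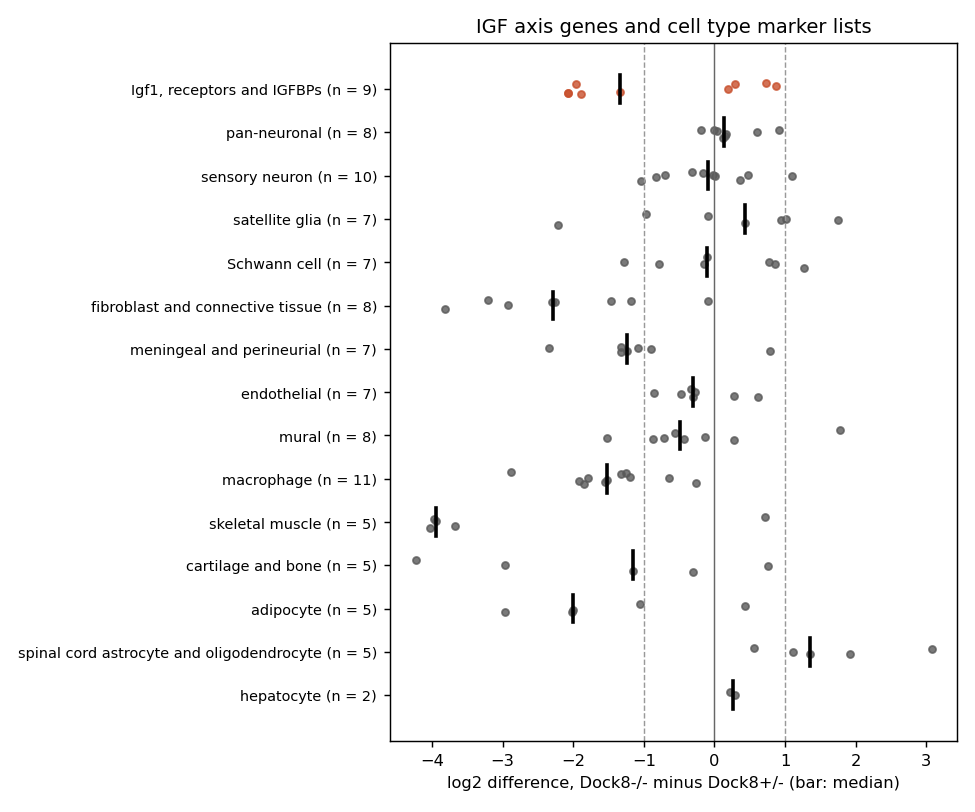
Log2 difference (Dock8-/- minus Dock8+/-) of each measured marker gene by cell type list, with the 9 IGF axis genes on top, a bar at each median and dashed lines at 2-fold. Fibroblast, macrophage, muscle and adipocyte markers have medians between -3.94 and -1.52, and pan-neuronal and sensory neuron markers have medians of 0.13 and -0.09. Spike-in scaling lowers each value by 1.85.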

How the data were processed

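The authors deposited scanner files with a linear processed intensity per spot. Per the file headers they were made with Agilent Feature Extraction 10.7.1.1 and probes are placed on mm9, while version 9.5.1.1 stands in the submitters' processing notes. Per the same headers, 1 slide held both arrays. Spots of a probe were averaged as log2 intensity, without non-uniform spots (3 in Dock8+/- and 1 in Dock8-/-), and each array's 75th percentile was subtracted. A gene took its brightest probe among those well above background on both arrays, which 56.9% (Dock8+/-) and 50.7% (Dock8-/-) of probes were on each array. The 2 arrays limit the precision of every value, and no batch split was possible.

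The authors' deposited value table holds intensity on a linear scale and was found to be quantile normalised: 98.9% of sorted values were equal in both columns (tolerance 0), each column had a median of 27.9, and its log2 values had correlations of 0.9997 and 0.9993 with the matching scanner files across probes. Its scale and direction follow from this and no centring was seen, and 0 of its columns were left unused.

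Scaling was also done by the median or 75th percentile over doubly detected probes, by quantiles, by loess (span 0.3) and by 8 spike-in probes. Further alternatives were normexp with an offset of 50 (limma 3.58.1, R 4.3.3), the value table, averaging all measured probes of a gene, no filter or another detection flag, matching by accession, and 1.5-fold and 3-fold. The scripts were tested on simulated data. The named genes are the 10 chosen genes with every probe, Igf2 and Igf2r, and up to 6 genes at least 2-fold apart per pathway list. Other genes named from the pathway and marker lists were chosen after their values were seen. The genes and lists were chosen with earlier results of these data known.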

Additional observations from a re-analysis of the deposited data

How the results depend on the processing

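No paired analysis was possible because each genotype had 1 array, and for the same reason no replicate could be left out. Apart from spike-in scaling, the 9 measured genes kept their sign under each setting, with 5 at least 2-fold lower except for the mean of probes (4, with Igf1 at -0.925) and the 3-fold threshold (4). Spike-in scaling, which rests on 8 probes, lowered the median of all genes by 1.85, gave 8 lower, and put 4 of the genes above 0 below it. Their median of -1.34 was -0.925 with the mean of probes, -1.54 with normexp and -3.19 with spike-in scaling. Without a filter and with the other detection flag the 9 genes did not move. Igfbp1, which cleared the background on neither array, then joined them, and the median over the 10 genes was -0.57. Those at least 2-fold higher (0) numbered 2 at 1.5-fold. Without a filter and with the other flag 1 was higher, and this was Igfbp1.

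All genes at least 2-fold higher (1698) numbered 3908 at 1.5-fold, 489 at 3-fold, 5448 without a filter, 706 with normexp, 3435 with the other flag and 58 with spike-in scaling. Those lower (1310) numbered 3148, 424, 2760, 865, 2075 and 16314 in the same order. Pathway genes higher (7) numbered 17 at 1.5-fold, 2 at 3-fold, 13 without a filter, 3 with normexp and 0 with spike-in scaling, and those lower (11) numbered 17 at 1.5-fold, 6 at 3-fold and 59 with spike-in scaling. Their median of 0.01 was 0.11 without a filter, which also takes in dim genes, -0.12 with normexp and -1.84 with spike-in scaling. Each single-gene value was compared with itself under each alternative setting. Of these comparisons 204 stayed within 0.064, the SD of a difference of single spots, while 80 moved and 5 reversed. Some could not move, such as averaging probes for a gene with 1 measured probe. Besides Igf1r, Igfbp3, Igfbp4 and Insr (to -1.66, -1.12, -1.56 and -0.98), 5 genes that had been 2-fold apart turned, again with spike-in scaling: Irs2 to -0.84, Ptpn11 to -0.84, Socs2 to -0.73, Rheb to -0.70 and Pappa2 to -0.29. These turns follow from the constant 1.85 that spike-in scaling takes off each difference. The spike-in probes read brighter on the Dock8-/- array (median log2 difference 0.79 before scaling), while that array's 75th percentile was lower. Why the spike-ins and the 75th percentiles differed in this way was not tested. Dim probes limit Igfbp1 and 1 probe each of Igf1, Igfbp3 and Insr.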
